A study of Mus musculus with 20 samples.

Results

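Gene expression 1 wk after conditioned fear (CF) training was compared with that at baseline, in WT and DKO mice and in 2 regions, the amygdala and the hippocampus. The comparison takes the 4 arrays labelled 1 wk and the 4 labelled baseline, 8 of the 20 arrays of the study, and sets them against each other within region and genotype, which gives 4 pairs. All mice were C57BL/6 males of 2 mo. DKO mice lack AC1 and AC8, and by the methods they carried a tetop-AC8 or a CaMKII-tTA transgene alone or neither and came from matings kept on doxycycline until weaning, whereas the WT mice were not their littermates. Baseline mice had received no shock. The 1 wk mice had received 1 shock of 0.7 mA for 2 s at training and were returned to the training chamber for a 5 min test just before they were killed, so that the time since training and the test itself cannot be told apart. Each array held RNA of 5 to 10 mice pooled from bilateral micropunches, and there was 1 array per region, genotype and time point. Whether both regions came from the same mice is not stated in the sources used here.

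AC1 and AC8 are the adenylyl cyclases that calcium and calmodulin stimulate, and they link neuronal activity to cAMP, protein kinase A and the transcription factor CREB, which binds the cAMP response element (CRE). The amygdala stores the association of a cue or place with a shock, and the hippocampus supplies the memory of the place. Immediate-early genes such as Fos and Egr2 are transcribed within minutes of neuronal activity, for example when a fear memory is recalled.

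The deposited values are log2 RMA values of 28853 transcript clusters. A transcript cluster is a set of probes summarized to 1 value for a gene or a stretch of it. A change or difference is the 1 wk value minus the baseline value on that log2 scale. A single pair has no replicates, so its differences carry no test and were read at a limit of 1.5-fold, and tests were run over 2 or 4 pairs with limma. Adcy1 and Adcy8, the disrupted genes, were lower on every DKO array of the comparison than on every WT array of the same region. Adcy8 read 7.26 at baseline and 6.94 at 1 wk in the WT amygdala against 5.89 and 5.80 in the DKO amygdala, and 7.25 and 7.66 against 5.42 and 5.79 in the hippocampus. Adcy1 read 8.26 and 8.07 against 7.51 and 7.73 in the amygdala and 9.04 and 9.32 against 7.71 and 7.68 in the hippocampus. Prox1, a transcription factor of dentate granule cells, read 9.34 to 9.62 on the hippocampal arrays and 6.66 to 7.11 on the amygdala arrays, and Meis2, a transcription factor of ventral forebrain neurons, read 7.02 to 7.21 and 9.08 to 9.69. In bulk tissue, fewer cells of a type and less RNA per cell cannot be told apart.

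Over the 4 pairs together Snord14e rose. Snord14e is a small nucleolar RNA, a class that guides chemical modification of ribosomal RNA, and it is encoded in an intron of Hspa8, which codes for a heat shock cognate chaperone. Its level went from 9.39 to 10.10 in the WT amygdala, from 9.11 to 10.03 in the DKO amygdala, from 8.89 to 10.14 in the WT hippocampus and from 9.41 to 10.04 in the DKO hippocampus. The 4 values at 1 wk lay above all 4 values at baseline. The mean log2 change was 0.88 (SE 0.125, 4 pairs), a 1.84-fold rise, with an adjusted p of 0.0293 by limma. It was the 1 call among all transcript clusters, 0.00347% of them, while 900 had an unadjusted p under 0.05. By limma the call was lost when any of 7 of the 8 arrays was left out (adjusted p = 0.0614 to 0.311). It held without the DKO hippocampus baseline array (adjusted p = 0.0349). A further quantile normalization also ended the call (adjusted p = 0.0819), as did a fit of the 8 arrays alone (adjusted p = 0.755). The change itself lay between 0.77 and 0.95 in every alternative fit against baseline. Against the mean of the other 4 arrays of the same region and genotype it was smaller, with 0.17, 0.28, 0.38 and 0.17 in the order above.

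Snord14e also stood above its baseline values at 0 hr and 1 hr, but at 48 hr the DKO amygdala array lay within the range of the baseline arrays. At 0 hr it read 9.72 to 10.32, at 1 hr 10.28 to 10.53 and at 48 hr 9.40 to 9.89. The 3 transcript clusters that stand for Hspa8 alone differed by −0.23 to 0.15 at 1 wk, which in every pair was less than the change of Snord14e.

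**Figure D1:**
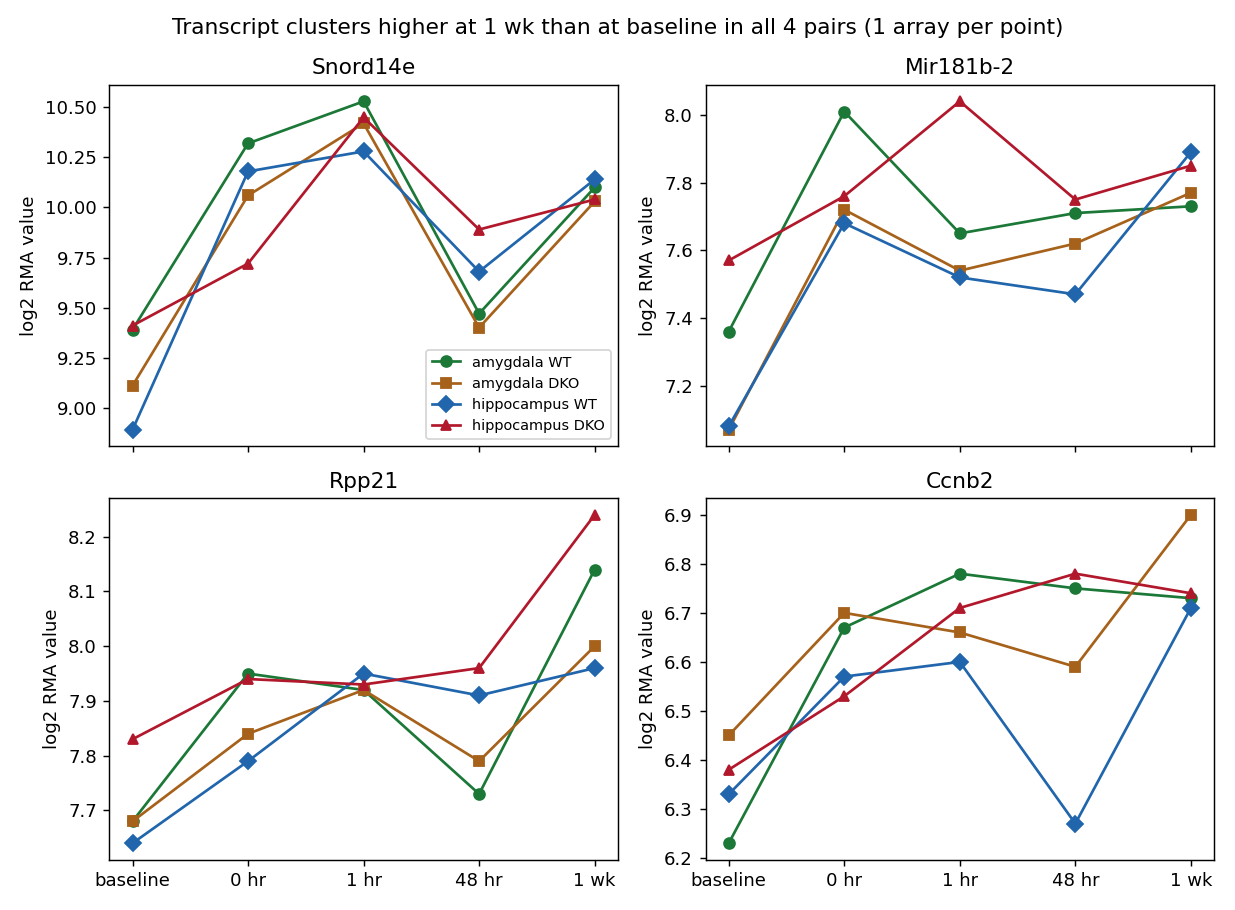
Levels of 4 transcript clusters that were higher at 1 wk than at baseline in every pair. The x axis gives the time point, the y axis the log2 RMA value, and each point is 1 array of pooled RNA. Snord14e stands at 8.89 to 9.41 on the baseline arrays and at 10.03 to 10.14 on those of 1 wk, after values of up to 10.53 at 1 hr.

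Changes that ran the same way in all 4 pairs were otherwise small. Of all transcript clusters 6.16% were higher and 2.16% lower at 1 wk in every pair, but 6 were higher by 0.3 or more in each and 0 were lower by that amount. Mir181b-2, a microRNA gene, went from 7.36 to 7.73, from 7.07 to 7.77, from 7.08 to 7.89 and from 7.57 to 7.85 in the order of the pairs above. Its mean change of 0.54 (SE 0.0957) did not pass (adjusted p = 0.202 by limma), although its 1 wk values lay above all baseline values. Against the mean of the other 4 arrays of the same region and genotype it differed by 0.05, 0.29, 0.45 and 0.06. Which form of a microRNA a transcript cluster measures is not stated in the sources used here. The mature strands of this gene are shown because it had the largest mean change after Snord14e among the named genes of this pattern, with the seed, bases 2 to 8, in capitals. The sequences are those of RefSeq on GRCm38.p6, and the 5p strand lies at chr2:38853845-38853868 (+).
miR-181b-5p: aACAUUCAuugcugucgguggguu
miR-181b-2-3p: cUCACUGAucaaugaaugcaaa

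Rpp21, a protein subunit of the ribonuclease P complex that trims transfer RNA, differed by 0.45, 0.32, 0.32 and 0.42, with a mean of 0.38 (SE 0.0679, adjusted p = 0.202). Ccnb2, a mitotic cyclin, differed by 0.50, 0.45, 0.38 and 0.36 (mean 0.42, SE 0.0854, adjusted p = 0.479). For both genes the 4 values at 1 wk lay above all 4 at baseline. Against the mean of the other 4 arrays Rpp21 differed by 0.31, 0.19, 0.14 and 0.33, and Ccnb2 by 0.12, 0.30, 0.27 and 0.14. Kbtbd8, a substrate adaptor of a ubiquitin ligase, was higher by 0.25 to 0.74, the phosphatase Ublcp1 by 0.21 to 0.43 and Zfp248, a zinc finger gene, by 0.20 to 0.43. Among genes that were lower in every pair, the serotonin receptor Htr2c differed by −0.30, −0.25, −0.79 and −1.41, the keratin Krt8 by −0.21, −0.51, −0.32 and −0.77, and Cwc22, a splicing factor, by −0.30, −0.29, −0.37 and −0.29 on 1 of its 8 transcript clusters. The other 7, which share their values, differed by −0.29, 0.30, 0.10 and 0.20. The ephrin Efnb2 differed by −0.24 to −0.15, the matrix proteoglycan Dcn by −0.55 to −0.15 and the fibroblast protease Fap by −0.58 to −0.16. By limma these genes had adjusted p-values of 1.0 over the 4 pairs.

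In the hippocampus genes of the choroid plexus, the epithelium in the ventricles that secretes cerebrospinal fluid, stood lower at 1 wk in both genotypes. Of 16 choroid plexus genes on the array, 7 were lower by 1.5-fold or more in WT and 15 in DKO mice, with median log2 changes of −0.54 and −1.14. Over all transcript clusters 0.111% and 0.406% were lower by that amount, and the median over all genes was 0.08 and −0.02. In the amygdala the list had medians of 0.25 in WT and −0.01 in DKO mice, and 0 of its genes reached 1.5-fold in either direction.

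Ttr, transthyretin, which carries thyroid hormone, read 13.05 at baseline and 10.46 at 1 wk in the WT hippocampus, and 13.34 and 10.12 in the DKO hippocampus. These are differences of 6.04-fold and 9.29-fold. Its values in the amygdala were 13.23 and 13.20 in WT and 13.04 and 13.17 in DKO mice. Ecrg4, a secreted peptide precursor, went from 9.16 to 7.17 and from 9.79 to 7.39 in the hippocampus, and from 9.14 to 9.42 and from 9.25 to 9.31 in the amygdala. For both genes the hippocampal arrays of 1 wk lay below those of baseline by a wide margin, while the amygdala arrays of both times lay close together. The chloride channel protein Clic6 differed by −1.90 and −2.25 in the hippocampus, Calml4, a calmodulin-like protein, by −1.43 and −1.96, and the BMP antagonist Sostdc1 by −1.15 and −1.51. The potassium channel subunits Kcne2 and Kcnj13 differed by −0.96 and −1.67 and by −0.73 and −0.86. Kl, the klotho protein, differed by −0.57 and −1.30, and the water channel Aqp1 by 0.01 and −0.82. Slc13a4, a sulfate transporter, was the 1 gene of the list that was lower by less than 1.5-fold in DKO mice (−0.47).

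By limma none of these genes passed in the hippocampus, where 0 transcript clusters did, 0% of all, and 726 had an unadjusted p under 0.05, among them 15 of this list. The hippocampal change of Ttr was −2.90 (SE 0.679, 2 pairs, adjusted p = 0.997) and that of Clic6 −2.07 (SE 0.394, adjusted p = 0.805). This test takes its spread from all time points, and the level of the list moved between the other time points too. The mean log2 level of the list, from baseline over 0 hr, 1 hr and 48 hr to 1 wk, was 7.84, 7.76, 8.01, 7.16 and 6.99 in the WT hippocampus and 8.23, 8.01, 6.95, 6.95 and 6.86 in the DKO hippocampus. In the amygdala it was 7.92, 6.98, 6.85, 7.16 and 8.09 in WT and 8.06, 6.91, 7.94, 7.58 and 7.99 in DKO mice. Thus the array of 1 wk was the lowest of 5 in both genotypes of the hippocampus, but the array of 48 hr was close to it in both, as was that of 1 hr in DKO mice. When only the 8 arrays of baseline and 1 wk were fitted, 5 transcript clusters passed in the hippocampus, all lower, and 4 carry a symbol, Ttr (adjusted p = 0.000818), Ecrg4 (0.00217), Clic6 (0.0105) and Calml4 (0.0155). In the same fit Ttr and Ecrg4 passed for the difference between the regions (adjusted p = 0.0156 and 0.0237).

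**Figure D2:**
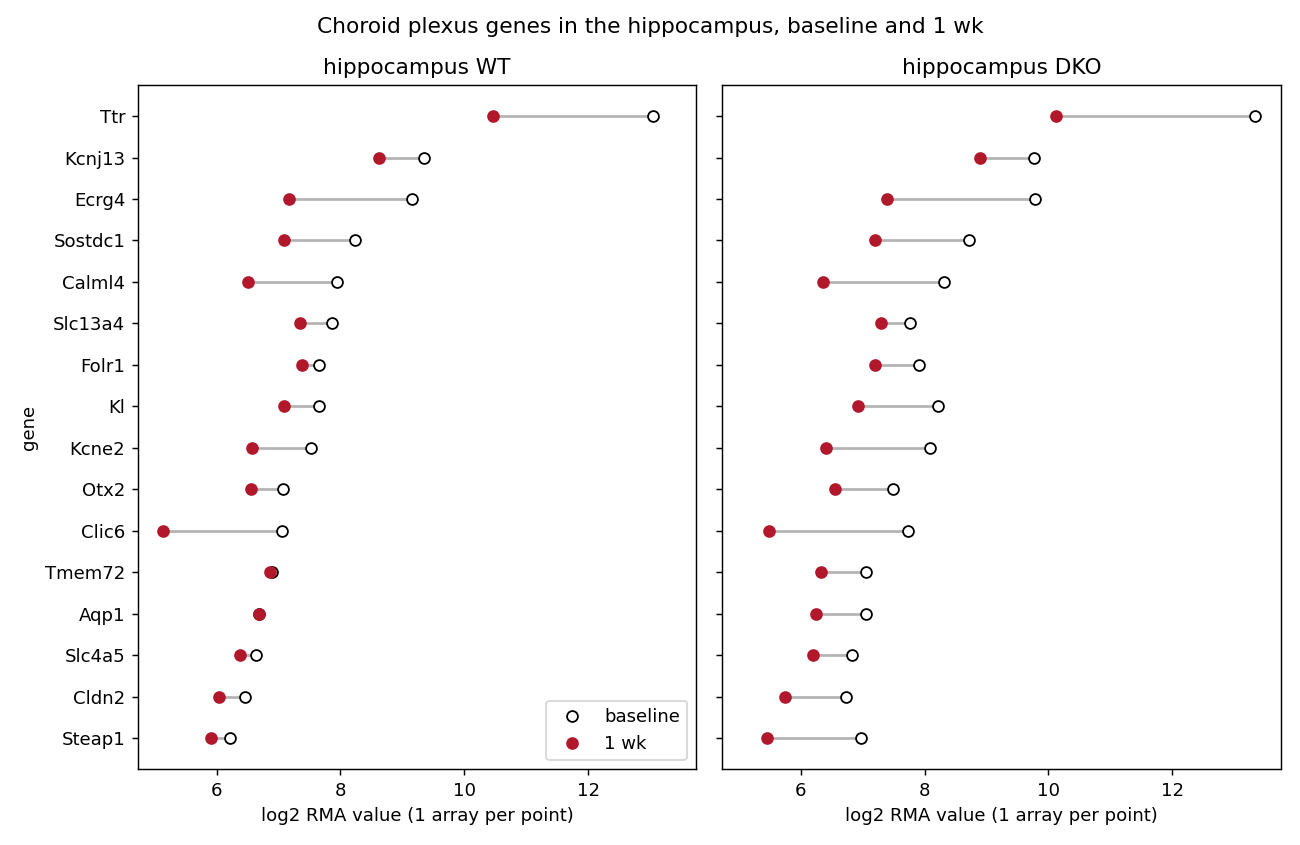
Choroid plexus genes in the hippocampus of WT mice (left) and DKO mice (right). The x axis gives the log2 RMA value, open points are the baseline array and filled points the array of 1 wk, and genes are ordered by their WT baseline level. In DKO mice all 16 genes lie lower at 1 wk, in WT mice 15 of 16.

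Genes outside that list were lower as well. In total 17 transcript clusters were lower by 1.5-fold or more in both genotypes of the hippocampus, 0.0589% of all, and 15 of them carry 1 symbol. Besides 7 choroid plexus genes these were Htr2c, which choroid epithelium also expresses, Sulf1, a sulfatase of heparan sulfate (−0.81 in WT and −1.19 in DKO mice), Trpm3, an ion channel (−0.61 and −0.77), the coagulation factor F5 (−0.61 and −0.97), Mgp, the matrix Gla protein (−0.80 and −0.60), Lum, a proteoglycan of fibroblasts (−0.83 and −0.67), and the ciliary genes Rsph4a (−0.59 and −0.68) and Drc7 (−0.76 and −0.84). Of 16 genes of meninges, fibroblasts and smooth muscle, 12 in WT and 13 in DKO mice were lower in the hippocampus, with medians of −0.26 and −0.16, and 1 in each, Lum, reached 1.5-fold. For comparison, hippocampal changes above 0 were found for 73.9% of all genes in WT mice and for 45.5% in DKO mice. A decrease of 1.5-fold or more was seen for 0.1% and 0.381% of all genes. The part of meninges, fibroblasts and smooth muscle in the other hippocampal values was not tested.

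Of 52 transcript clusters that were higher by 1.5-fold or more in both genotypes of the hippocampus, 0.18% of all, only Snord14e carries a symbol. The other 51 are unnamed here and hold 2 distinct pairs of values, as 701 transcript clusters share all 20 values with at least 1 other, in sets of up to 50. With each such set counted once, 100 and 98 transcript clusters were higher in the WT and the DKO hippocampus, in place of 149 and 152.

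The hippocampal pairs differed by genotype in genes of the thalamus, which lies beneath the hippocampus. Of 17 thalamic genes all were higher at 1 wk in WT mice, 3 of them by 1.5-fold, and 14 were lower in DKO mice, 0 by 1.5-fold, with medians of 0.34 and −0.22. Of all genes 0.276% were higher by 1.5-fold in the WT hippocampus and 0.381% lower in the DKO hippocampus, and 73.9% and 45.5% lay above 0. Slc17a6, the vesicular glutamate transporter of thalamic neurons, read 7.81 and 8.66 in WT and 8.81 and 8.58 in DKO mice. Tcf7l2, a transcription factor of thalamic neurons, read 8.64 and 9.23 in WT and 9.41 and 9.31 in DKO mice, and Calb2, the calcium buffer calretinin, read 5.73 and 6.47 in WT and 6.38 and 6.44 in DKO mice. The WT baseline array was the low one of these 4 arrays for all 3 genes. Over the whole list, however, the mean level on the WT arrays was 7.01 at baseline, 6.96 to 7.08 at the times between and 7.39 at 1 wk, so that among the WT arrays that of 1 wk stood apart, while the DKO arrays ranged from 7.28 to 7.70. When the changes of the genotypes were compared over both regions, 0 members passed by limma, and 5 had an unadjusted p under 0.05. Over all transcript clusters 0% passed this test, with 5152 at an unadjusted p under 0.05. Without the WT hippocampus baseline array 854 passed, without the DKO hippocampus baseline array 7 and without the DKO hippocampus array of 1 wk 1.

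Among other genes above the median level, Vwc2l, a secreted regulator of BMP signaling, was higher by 1.16 in the WT hippocampus and lower by 0.48 in the DKO hippocampus. Cntn6, a contactin adhesion molecule, was higher by 0.71 in WT and differed by −0.04 in DKO mice. For both genes the WT hippocampus baseline array was the lowest of 5. There Vwc2l read 6.21, against 6.83 to 7.61 on the later WT arrays, and Cntn6 read 6.52, against 7.04 to 7.30. The neuropeptide Nts, neurotensin, went from 7.65 to 6.21 in the DKO hippocampus, a log2 change of −1.44, and from 6.63 to 6.83 in WT mice. On the DKO hippocampal arrays of 0 hr, 1 hr and 48 hr it read 6.57, 7.05 and 6.20, so that the baseline array was the highest of 5. Akr1b10, an aldo-keto reductase, was higher by 0.87 in DKO mice and by 0.12 in WT mice, and Gas5, a host gene of small nucleolar RNAs, was higher by 0.74 in DKO mice and lower by 0.25 in WT mice on 1 of its 4 transcript clusters, while the others differed by 0.03 to 0.31 in DKO and by −0.23 to 0.10 in WT mice.

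In the amygdala the WT and DKO pairs differed in direction. Genes of striatal projection neurons, the GABA projection neurons of the striatum, stood lower at 1 wk in WT mice, 12 of 22 by 1.5-fold or more with a median log2 change of −0.61. In DKO mice 0 were lower and 1 higher by that amount, with a median of 0.15. Over all transcript clusters 1.82% were lower by 1.5-fold in the WT amygdala and 0.839% higher in the DKO amygdala, and the median over all genes was 0.03 and 0.01. In the hippocampus the medians of the list were 0.01 in WT and 0.03 in DKO mice.

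The phosphodiesterase Pde10a, which degrades cyclic nucleotides in striatal neurons, went from 10.20 to 9.03 in WT mice and from 9.06 to 9.28 in DKO mice. Rgs9, a brake on dopamine receptor signaling, read 9.71 and 8.66 in WT and 8.66 and 8.90 in DKO mice. Tac1, the precursor of substance P, read 10.91 and 10.04 in WT and 9.58 and 10.18 in DKO mice. In all 3 genes the WT baseline array was the highest of the 4, and the WT array of 1 wk lay below the DKO array of the same time. The dopamine receptors Drd1 and Drd2 differed by −0.69 and −0.48 in WT and by 0.02 and 0.17 in DKO mice, and Rarb, a retinoic acid receptor of striatal neurons, by −0.80 and 0.44. Bcl11b, a transcription factor of these neurons and of deep cortical layers, differed by 0.06 and −0.09, and the receptor Gpr6 by 0.50 and −0.57. From baseline to 1 wk the list had mean levels of 8.63, 8.37, 8.61, 8.20 and 8.10 on the WT amygdala arrays, and those of DKO mice lay between 7.98 and 8.17. When the changes of the genotypes were compared over both regions by limma, 0 members passed. In that test 6 had an unadjusted p under 0.05, as had 5152 of all 28853 transcript clusters. The difference over both regions was 0.66 for Pde10a (DKO minus WT, SE 0.301, adjusted p = 0.269 by limma). It includes the hippocampus, and the difference in the amygdala alone has no test. Oligodendrocyte and myelin genes had medians of −0.29 in WT and 0.15 in DKO mice, and Ugt8a, an enzyme of myelin lipid synthesis, was lower by 0.67 in WT mice.

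**Figure D3:**
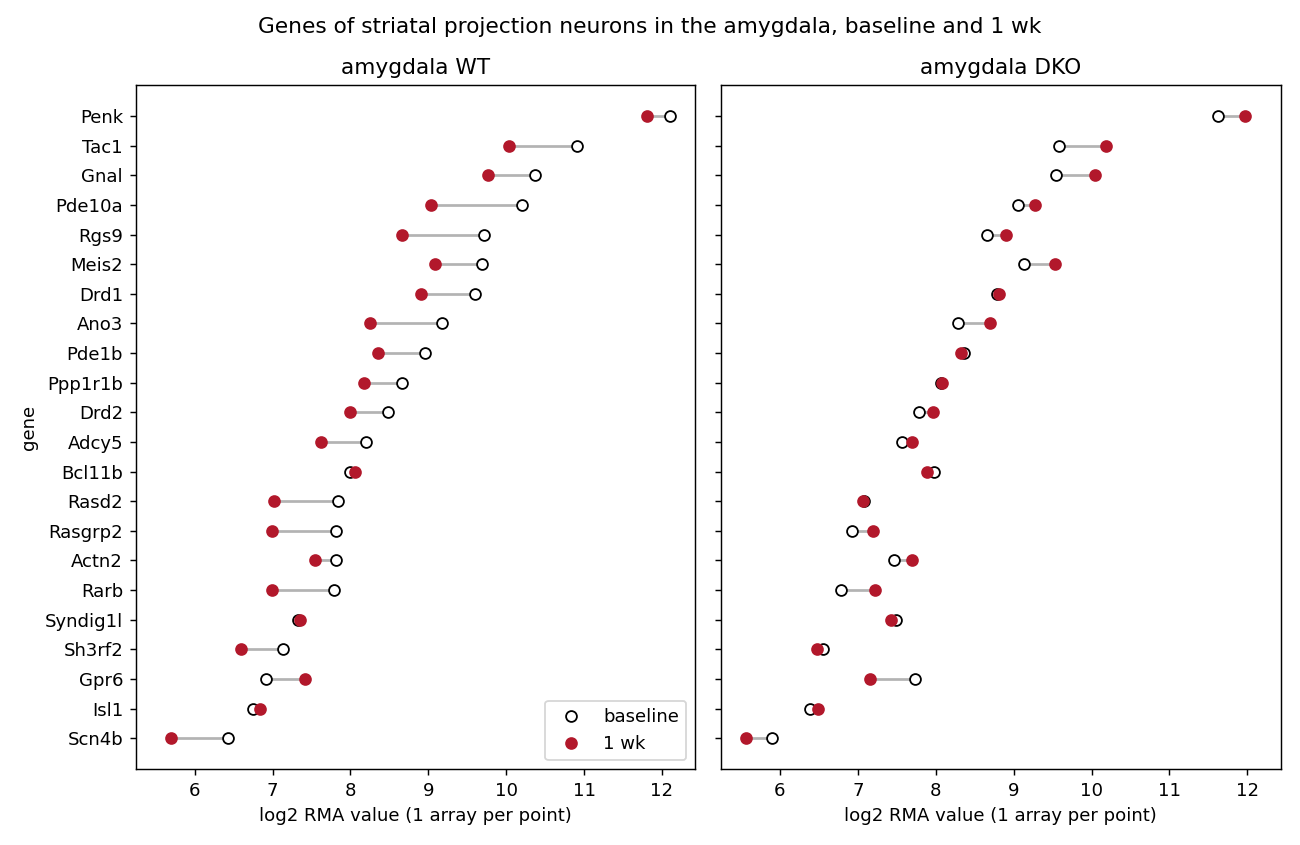
Genes of striatal projection neurons in the amygdala of WT mice (left) and DKO mice (right). The x axis gives the log2 RMA value, open points are the baseline array and filled points the array of 1 wk. In WT mice 12 of 22 genes are lower by 1.5-fold or more, in DKO mice 0.

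Opposite changes were not limited to that list. In the amygdala 104 transcript clusters, 0.36% of all, passed 1.5-fold in opposite directions in WT and DKO mice, 76 of them lower in WT and higher in DKO mice. In the hippocampus 6 did, 0.0208%. In the amygdala 2 were higher in both genotypes, 0.00693%, of which Snord14e carries a symbol, and 1 without a symbol was lower in both, 0.00347%. Myo9a, an unconventional myosin, read 9.00 and 7.80 in WT and 7.07 and 8.31 in DKO mice on 1 of its 13 transcript clusters. The WT baseline value and the DKO value of 1 wk were the high ones, and the DKO baseline value was the lowest. The other 12 differed by −1.07 to −0.04 in WT and by −0.08 to 0.57 in DKO mice. Srsf3, a splicing factor, read 9.79 and 9.03 in WT and 8.47 and 9.51 in DKO mice on 1 of its 3 transcript clusters, and the others differed by −0.13 and −0.11 in WT and by 0.19 and 0.28 in DKO mice. The zinc finger genes Zfp617 and Zfp672 differed by −1.37 and −1.40 in WT and by 0.87 and 0.77 in DKO mice, the latter on 1 of 2 transcript clusters (−0.29 and 0.30 on the other). Pgap1, which remodels GPI anchors, differed by −1.32 and 0.79 on 1 of 2 transcript clusters (−0.26 and 0.31 on the other), Cspp1, a protein of the centrosome and cilium, by −0.87 and 0.86 on 1 of 14, and Chmp1b, a subunit of the ESCRT membrane scission complex, by −0.80 and 0.82. The other transcript clusters of Cspp1 ran from −0.97 to 0.41 in WT and from −0.43 to 0.85 in DKO mice. Over both regions together, the difference between genotypes by limma was 1.23 for Myo9a (SE 0.452, adjusted p = 0.206). By the same test it was 0.95 for Srsf3 (SE 0.319, adjusted p = 0.183). In the hippocampus these transcript clusters differed by 0.24 in WT and 0.26 in DKO mice for Myo9a, and by 0.15 and 0.27 for Srsf3. The amygdala alone has 1 pair per genotype, so its difference between genotypes has no test. Against the mean of both baseline arrays of the region, 0 transcript clusters passed in opposite directions, and against the mean of the other 4 arrays of the same region and genotype 20 did.

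The largest changes in the WT amygdala among genes above the median level were on the lower side. Nexn, an actin-binding protein that is also among the thalamic genes, read 8.70 and 6.90 in WT and 7.0 and 7.68 in DKO mice. Tra2b, a splicing regulator, differed by −1.55 and 0.20 on 1 of 2 transcript clusters and by −0.08 and −0.13 on the other. Adgrl2, a latrophilin, differed by −1.49 and 0.67 on 1 of 8, and the others ran from −0.88 to 0.02 in WT and from −0.21 to 0.34 in DKO mice. On the higher side, the keratin-associated gene Krtap10-10 differed by 1.39 and −0.32, the proline-rich protein gene Prp2 by 1.07 and −0.69, and Tns1, tensin 1, by 0.96 and −0.66 on 1 of its 6 transcript clusters. The others of Tns1 did not share a direction, with −0.32 to 0.54 in WT and −0.38 to 0.22 in DKO mice. In the DKO amygdala Ciart, a repressor of the circadian clock, was higher by 1.20 on 1 of 2 transcript clusters (−0.03 on the other), Rbm11, a splicing regulator, by 1.03, and Alg14, of N-glycan synthesis, by 0.94, against −0.24, −0.40 and −0.42 in WT mice. Oas1a, an interferon-induced antiviral enzyme, and Wnt9a, a Wnt ligand, were lower by 0.75 and 0.67 in DKO mice and higher by 0.34 and 0.32 in WT mice.

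Of 26 neuropeptide genes 2 were lower by 1.5-fold in the WT amygdala, Tac1 and Crh, and 3 were higher in the DKO amygdala, Nts, Grp and Tac1. Of all genes 1.11% were lower by that amount in the first and 0.597% higher in the second, and the medians of the list were 0.11 and 0.14. Crh, corticotropin-releasing hormone, read 7.23 and 6.48 in WT and 6.17 and 6.56 in DKO mice. Grp, gastrin-releasing peptide, which is made in the lateral amygdala, read 9.73 and 9.22 in WT and 9.44 and 10.06 in DKO mice. Nts read 9.39 and 9.26 in WT and 8.76 and 9.56 in DKO mice. For Crh the WT baseline value was the highest of the 4, and for Grp and Nts the DKO value of 1 wk. Sst and Npy, peptides of interneurons, differed by −0.03 and 0.12 in the WT amygdala and by 0.00 and 0.15 in the DKO amygdala.

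Single microRNA genes of the Dlk1-Dio3 region, an imprinted cluster on chromosome 12 that is expressed in neurons, were among the opposite changes. Of 43 genes of that region and its hosts on the array, 5 were lower by 1.5-fold in the WT amygdala and 2 higher in the DKO amygdala, against 1.11% and 0.597% of all genes. The list as a whole had medians of −0.05 in WT, with 21 genes above 0, and 0.01 in DKO mice, with 23 above 0. Mir376b read 8.0 and 7.06 in WT and 6.72 and 7.88 in DKO mice, and Mir376a read 4.98 and 4.37 in WT and 4.21 and 4.96 in DKO mice. For both, the WT baseline and the DKO 1 wk arrays were high and the others low. Mir376a had a low signal, with all 4 values below the median level of 6.75 over all transcript clusters. Mir495 differed by −1.21 and 0.18. The host transcript Meg3 differed by 0.00 and 0.01 and Rian by 0.16 and 0.12. The strands of the 3 genes are shown, with seeds in capitals and positions on GRCm38.p6 from RefSeq, because they had the largest changes of the cluster. No pair of the 6 strands shares a seed. Those of Mir376b lie at chr12:109723471-109723492 and chr12:109723508-109723528, those of Mir376a at chr12:109723786-109723807 and chr12:109723824-109723844 and those of Mir495 at chr12:109718757-109718779 and chr12:109718795-109718816, all on the plus strand.
miR-376b-5p: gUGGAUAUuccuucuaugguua
miR-376b-3p: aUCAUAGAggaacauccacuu
miR-376a-5p: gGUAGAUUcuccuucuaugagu
miR-376a-3p: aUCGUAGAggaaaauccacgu
miR-495-5p: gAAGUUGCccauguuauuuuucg
miR-495-3p: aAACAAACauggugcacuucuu

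Gene families that are mostly silent in brain had small medians of opposite sign in the genotypes. The median of 1244 chemoreceptor genes was 0.14 in the WT and −0.06 in the DKO amygdala and 0.07 and −0.04 in the hippocampus, and 40 were higher by 1.5-fold in the WT amygdala, 3.22% of them against 1.88% of all genes. The median of 170 genes of epithelial families, among them keratin-associated proteins and defensins, was 0.25 and −0.12 in the amygdala and 0.07 and −0.09 in the hippocampus. After a further quantile normalization the medians of the chemoreceptors were 0.03 and −0.02 and those of the epithelial families 0.11 and −0.08 in the amygdala. The median difference varied with the level of expression. In the WT amygdala the median change was 0.187 in decile 4 of the transcript clusters by level and −0.164 in decile 9, and in the DKO amygdala it was −0.083 and 0.137. In the WT hippocampus it was 0.052 to 0.105 in every decile. After a further quantile normalization no decile had a median beyond 0.029 in either direction.

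**Figure D4:**
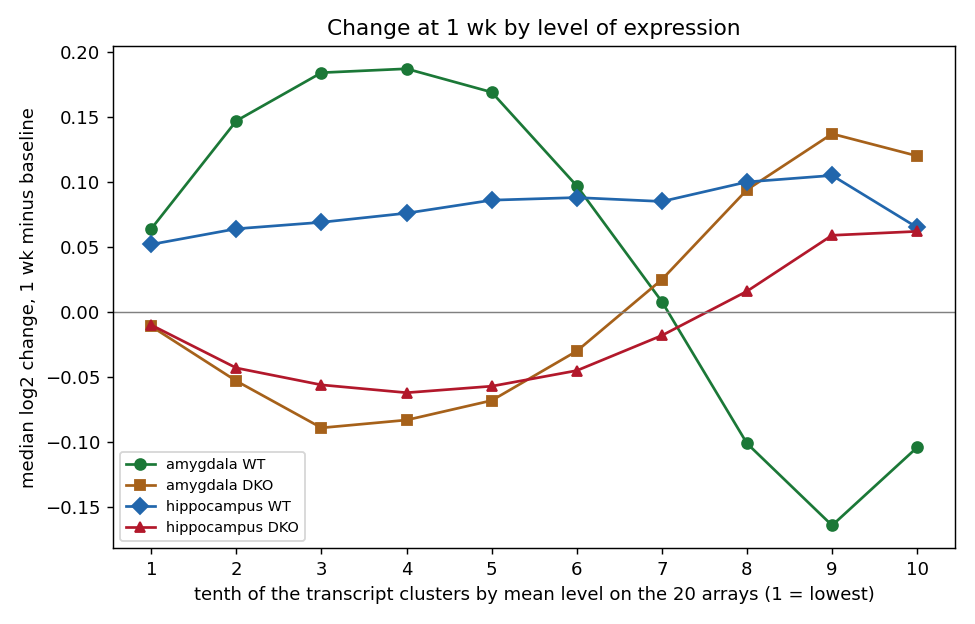
Median log2 change at 1 wk, 1 wk minus baseline, in deciles of the transcript clusters by their mean level on the 20 arrays. Each line is 1 pair of arrays. The WT amygdala is above 0 at low levels and below 0 at high levels, from 0.187 to −0.164, and the DKO amygdala runs the other way, from −0.089 to 0.137.

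The counts per pair carry that trend. In the WT amygdala 657 transcript clusters were higher by 1.5-fold or more, 2.28% of all, and 525 lower, 1.82%. In the DKO amygdala 242 were higher, 0.839%, and 124 lower, 0.43%. In the WT hippocampus the counts were 149, 0.516%, and 32, 0.111%, and in the DKO hippocampus 152, 0.527%, and 117, 0.406%. Of the higher ones in the WT amygdala 66.4% lay below the median level, and of the lower ones 60.6% lay above it. The share of higher among all of them was 55.6% in the WT amygdala as deposited, 38.0% after a further quantile normalization and 16.0% after median centring. It was 66.1%, 72.0% and 81.0% in the DKO amygdala, 82.3%, 59.4% and 41.4% in the WT hippocampus, and 56.5%, 63.9% and 68.2% in the DKO hippocampus. Hence which direction held more transcript clusters depended on the scaling in the WT amygdala and the WT hippocampus. By limma 0 transcript clusters passed in the amygdala, in WT mice, in DKO mice or for the difference between regions, 0% of all in each, with 716, 3687, 2611 and 623 at an unadjusted p under 0.05.

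Activity-induced genes were measured after the test trial. Of 20 activity-induced transcription factors 15 were higher at 1 wk in the WT amygdala and 18 in the WT hippocampus, with medians of 0.21 and 0.16, and 14 and 8 in the DKO regions, with medians of 0.09 and −0.02. Of all genes 55.1% were higher in the WT amygdala, 73.9% in the WT hippocampus and 51.5% and 45.5% in the DKO regions. After a further quantile normalization these medians were 0.12 and 0.08 in WT and 0.11 and −0.01 in DKO mice, and against the other 4 arrays of the same region and genotype they were 0.04 and 0.08 in WT and 0.03 and −0.04 in DKO mice. In WT mice 1 gene in each region was higher by 1.5-fold, Fos and Egr2, against 1.88% and 0.276% of all genes, and in DKO mice 0 were. Fos went from 6.13 to 6.72 in WT mice and from 6.5 to 6.38 in DKO mice in the amygdala, and in the hippocampus from 6.63 to 6.79 and from 6.36 to 6.27. In the same order Egr2 went from 7.23 to 7.62, from 7.14 to 7.14, from 6.46 to 7.08 and from 6.57 to 6.18. The WT baseline array was the low one for Fos in the amygdala. For Egr2 the DKO hippocampus was lowest at 1 wk. Over both regions together, the DKO change of Egr2 minus its WT change was −0.70 (SE 0.185, adjusted p = 0.167 by limma). For Fos the same difference was −0.48 (SE 0.178, adjusted p = 0.21 by limma). At 1 hr Egr2 had read 7.54 to 8.33 on the 4 arrays, above all values of 1 wk but that of the WT amygdala.

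The 150 bases before the transcription start of both genes are shown because CREB acts there, with TGACG, the core of the CRE, in capitals on either strand. They are those of RefSeq on GRCm38.p6, chr12:85473740-85473889 (+) for Fos and chr10:67537719-67537868 (+) for Egr2. Egr2 has 5 windows, and the window with the most copies of the core in the 250 bases before the start was taken. Counted from the start, the core lies at −129 and −66 in Fos and at −111 and −55 in Egr2. Of all 32851 promoter windows in the table, 20.8% hold TGACG within 250 bases before and 50 after the start, on either strand, against 72.7% of the 22 windows of the activity-induced transcription factors and 51.6% of the 31 windows of activity-induced effectors. The full CRE, the core followed by TCA, is in 1.8%, 4.5% and 19.4%. A match is a description of the letters and not of binding.
Fos: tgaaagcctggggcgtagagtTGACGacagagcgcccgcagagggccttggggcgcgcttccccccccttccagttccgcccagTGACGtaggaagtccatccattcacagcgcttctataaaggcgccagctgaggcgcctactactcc
Egr2: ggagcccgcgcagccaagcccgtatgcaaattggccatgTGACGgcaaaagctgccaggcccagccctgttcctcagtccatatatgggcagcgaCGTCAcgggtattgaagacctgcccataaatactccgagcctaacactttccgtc

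Of 29 activity-induced effectors 26 were higher in the WT hippocampus, with a median of 0.22, and 17, 17 and 18 in the WT amygdala, the DKO amygdala and the DKO hippocampus, with medians of 0.11, 0.04 and 0.03. The 73.9% of all genes above 0 in the WT hippocampus apply here too, and the median of 0.22 was 0.14 after a further quantile normalization, 0.13 with the level trend taken off and 0.08 against the other 4 arrays. Arc, a protein of the dendritic cytoskeleton and synapse, differed by 0.50 and 0.35 in the WT amygdala and hippocampus and by 0.02 and 0.13 in DKO mice. Bdnf, the neurotrophin, differed by 0.20 and 0.17 in WT and by −0.05 and 0.03 in DKO mice. Ptgs2, the inducible cyclooxygenase, was higher by 0.64 in the DKO amygdala and was the 1 effector at 1.5-fold. No gene of either list passed by limma in any of the 7 comparisons. For the difference between genotypes 4 of the 20 transcription factors and 3 of the 29 effectors had an unadjusted p under 0.05 by limma. So did 5152 of all 28853 transcript clusters.

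Of 31 genes of the cAMP pathway 3 were lower by 1.5-fold in the WT amygdala on the mean of their transcript clusters and 0 in any other pair, against 1.11% of all genes in the WT amygdala, and the medians were −0.14 and 0.13 in the WT and DKO amygdala and 0.08 and 0.03 in the hippocampus. Pde10a, Pde1b and Gnal, the G protein of striatal dopamine receptors, which are also on the striatal list, differed by −1.17, −0.61 and −0.61 in WT and by 0.21, −0.04 and 0.50 in DKO mice. The calmodulin kinase Camk4 was higher by 0.65 in the DKO amygdala. Receptor and channel genes had medians of −0.19 for glutamate receptors, −0.12 for GABA receptors and −0.20 for potassium channels in the WT amygdala, against 0.07, 0.14 and 0.12 in the DKO amygdala. After a further quantile normalization these were −0.08, 0.01 and −0.11 in WT mice and within 0.03 of 0 in DKO mice. Ribosomal protein genes had medians of −0.07 and 0.16 and those of oxidative phosphorylation −0.07 and 0.15 in the WT and DKO amygdala, and 0.00 and 0.07 and 0.02 and 0.05 after that normalization.

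Markers of the other cell types had smaller medians. In the hippocampus the medians of astrocyte genes were 0.07 in WT and −0.02 in DKO mice, those of microglia 0.08 and 0.06, those of hippocampal subfield neurons 0.00 and 0.03, and those of ependyma and cilia −0.10 and −0.09. GABA interneuron genes had medians of 0.26 and −0.02 there. In the amygdala microglial genes had medians of −0.16 and 0.19 and astrocyte genes of −0.11 and 0.06. The RT-PCR of the study covered further genes with a transcript cluster of their own. Syt10, a synaptotagmin, differed by −0.47, 0.53, 0.34 and 0.22 in the order WT amygdala, DKO amygdala, WT hippocampus and DKO hippocampus. Lynx1, a modulator of nicotinic receptors, differed by −0.04, 0.03, 0.10 and 0.13, the metal transporter Slc11a2 by 0.01, −0.04, 0.23 and 0.27, and Taf2, a subunit of the transcription factor TFIID, by −0.30, 0.19, 0.28 and 0.22. By limma these 4 genes had adjusted p-values of 1.0 over the 4 pairs.

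**Figure D5:**
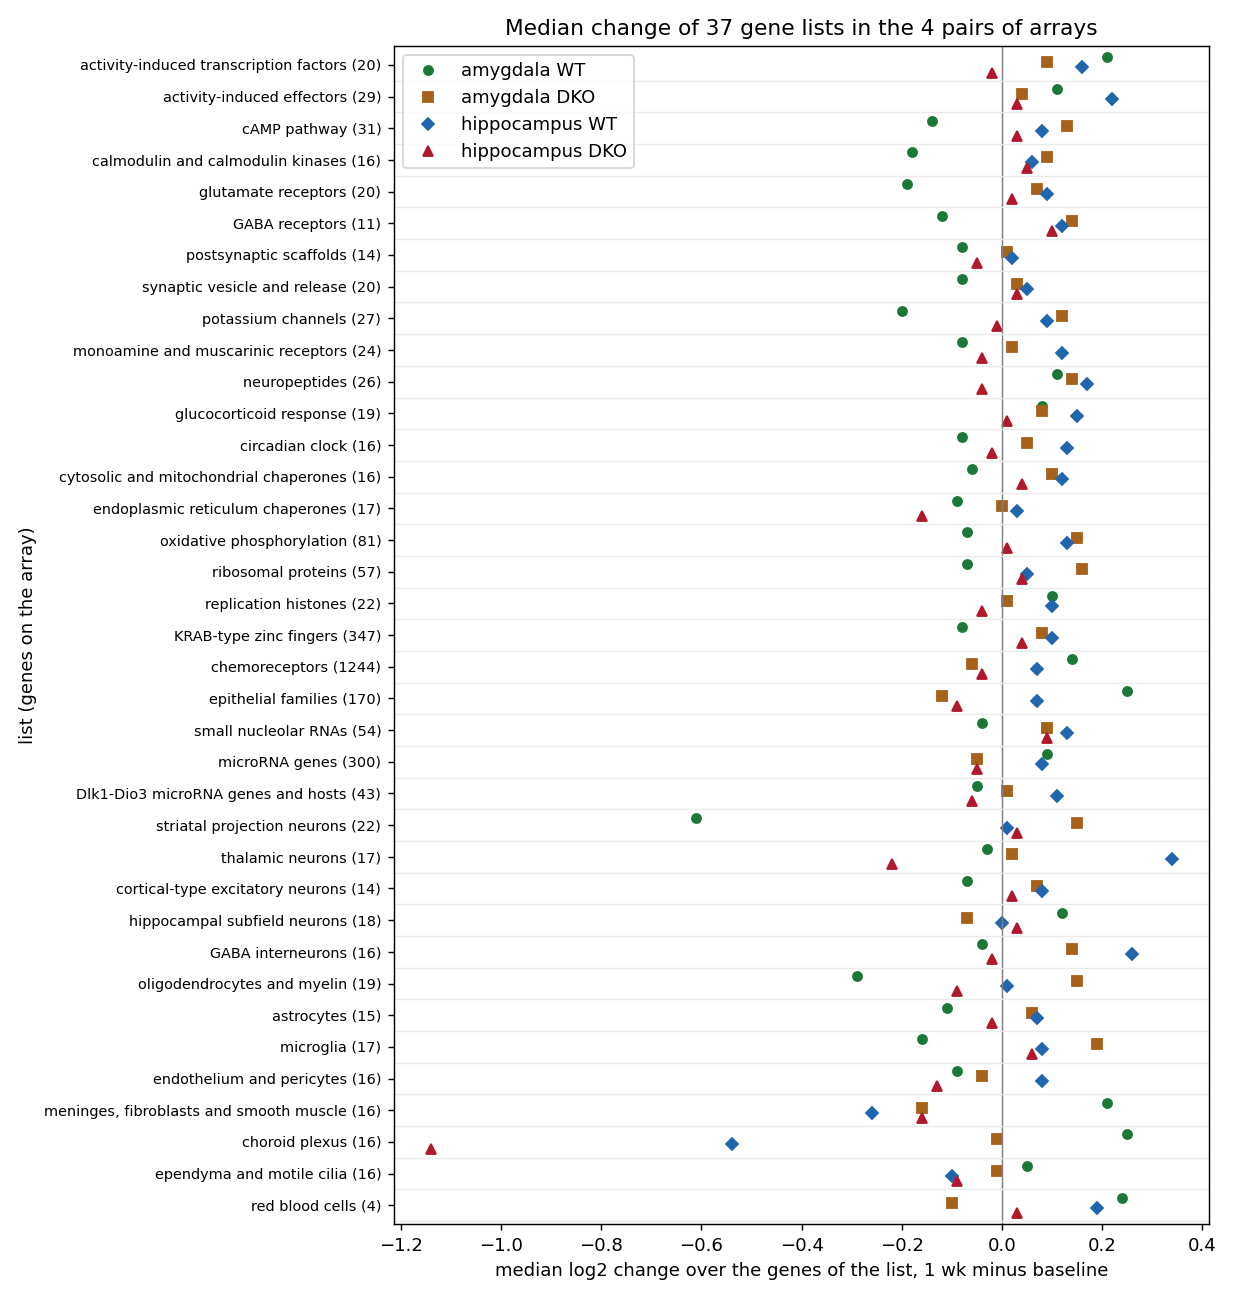
Median log2 change, 1 wk minus baseline, over the genes of 37 lists in the 4 pairs of arrays, with the number of genes on the array in brackets. The choroid plexus list is lowest in the hippocampus, at −0.54 and −1.14, the striatal list is lowest in the WT amygdala, at −0.61, and the thalamic list is highest in the WT hippocampus, at 0.34.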

How the data were processed

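RNA was hybridized to Affymetrix Mouse Gene 1.0 ST arrays. The authors ran RMA with the Expression Console of Affymetrix (version not given in the sources used here) and deposited log2 values, to which no filter was applied. The genome build of the array is not given, so genes carry no positions. Each of the 20 value columns was mapped to a sample by its label, and no array duplicated another. Of 28853 transcript clusters 21789 carry 1 gene symbol (19938 genes), 1621 several and 5443 none, and only those with 1 symbol were named.

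limma 3.58.1 (lmFit, eBayes) in R 4.3.3 was fitted on all 20 arrays and blocked by region and genotype (4 blocks), overall or with time point within region or within genotype. Where regions serve as replicates they may come from the same mice, and p-values then measure only the spread between arrays. Benjamini-Hochberg adjustment ran over all transcript clusters with a limit of 0.05. A single pair has no test, and its changes were counted at 1.5-fold (0.585 on the log2 scale). The scripts were tested on simulated data. The members, the 37 gene lists and the rule for named genes were chosen with earlier results of these data known. Lists were described by counts and medians of gene means. The rule named the disrupted genes, those of RT-PCR, the 10 largest calls and the 10 genes in each direction with the largest smallest change over the pairs, the 8 largest changes per pair and direction above the median level of 6.75, the 10 largest opposite changes in the amygdala and up to 6 members per list. Dcn, Efnb2 and others follow from it, whereas Hspa8, Drd2, Arc, Bdnf, Meg3, Prox1, F5, Trpm3, Drc7 and further list members were chosen after their values were seen. Alternatives were a median level filter, quantile normalization, median centring, a variance trend, array weights, other fits and references, a limit of 2-fold, and each array left out. Removal of the level trend (lowess, fraction 0.2), identical transcript clusters counted once and the alternatives for lists were added after seeing the data. Python 3.11.15, pandas 2.3.3 and statsmodels gave counts and plots. Sequences came from RefSeq tables of GRCm38.p6, in which all 9 named microRNA genes were found.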

Additional observations from a re-analysis of the deposited data

Results flagged for a closer look

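In the WT hippocampus the mean log2 level of 17 thalamic genes was 7.39 at 1 wk, above the other 4 arrays (6.96 to 7.08). The mean level of 16 circadian clock genes was 7.66 at baseline, below the other 4 arrays (7.77 to 7.80), and that of 81 genes of oxidative phosphorylation was 10.07 at baseline, below the others (10.20 to 10.25). For each the gap made up more than 0.71 of the range of the 5 arrays. Among 148 groups of 5 arrays checked, chance flags about 1 in 20, which is a larger share than was flagged here.

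The median change of the chemoreceptors was above 0 in both WT pairs and below 0 in both DKO pairs, with a difference (DKO minus WT) of −0.155. The same held for the epithelial families (−0.265) and for 300 microRNA genes (−0.135). These differences were not tested. The median over all genes was 0.03 in the WT amygdala, 0.08 in the WT hippocampus, 0.01 in the DKO amygdala and −0.02 in the DKO hippocampus. After a further quantile normalization the medians of the microRNA genes were 0.03, 0.01, −0.02 and −0.03 in that order.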

How the results depend on the processing

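Over the 4 pairs limma made 0 calls with the 8 arrays alone, further quantile normalization, median centring or 1 fit of time point within region and genotype, where Snord14e changed by 0.88, 0.83, 0.85 and 0.88. With the regions averaged it made 5 calls, Snord14e higher and 4 lower, of which Ttr, Clic6 and Calml4 carry a symbol. These named ones are choroid plexus genes that were lower in the hippocampus and changed by less than 1.5-fold in the amygdala. Leaving out each array gave 0 to 1 calls and a change of Snord14e of 0.77 to 0.95. The cause was not tested. In the hippocampus the 8 arrays alone gave 5 calls and for the difference between regions 2. Leaving out 1 array gave 0 to 1 calls in the amygdala (1 without the DKO baseline array), 0 to 6 in DKO mice (6 without the hippocampus baseline array, 1 without that of 1 wk) and 0 to 854 for the difference between genotypes. The 854 came without the WT hippocampus baseline array, 7 without the DKO hippocampus baseline array and 1 without that of 1 wk. A variance trend with robust fitting gave 1. The cause was not tested for these either.

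Counts per pair are given as higher and lower in the WT amygdala, the DKO amygdala, the WT hippocampus and the DKO hippocampus. At 2-fold they were 14 and 103, 24 and 3, 5 and 7, and 3 and 20. Above the median level they were 221 and 318, 171 and 25, 39 and 14, and 45 and 54. After quantile normalization they were 349 and 569, 296 and 115, 101 and 69, and 154 and 87. After median centring they were 202 and 1058, 329 and 77, 46 and 65, and 191 and 89. Against the other 4 arrays they were 114 and 172, 89 and 23, 22 and 21, and 104 and 21. Against both baseline arrays of the region they were 48 and 57, 45 and 40, 33 and 47, and 203 and 87. With the level trend taken off they were 337 and 640, 280 and 137, 50 and 66, and 169 and 93. With identical transcript clusters counted once the DKO hippocampus had 98 higher. The number of arrays limits the precision, and the common baseline array of a pair enters each of its values.

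The medians of the striatal list in the WT amygdala, of the choroid plexus list in the hippocampus and of the thalamic list in the WT hippocampus kept their direction under the 5 alternatives tried for them. The striatal median in the WT amygdala was −0.26 against both baseline arrays. Against both baseline arrays the thalamic median in the WT hippocampus was 0.15, in place of 0.34. Against the other 4 arrays the choroid plexus median was −0.58 in the DKO hippocampus, in place of −1.14, and −0.57 in the WT hippocampus, in place of −0.54. No paired analysis was possible beyond the blocks of region and genotype because each group holds 1 array.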
